A study of Mus musculus with 4 samples.

Results

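The genes described here carry signals of the transforming growth factor beta (TGF-beta) family: 3 TGF-beta ligands, the proteins that store and release them, the receptors of TGF-beta, activin and bone morphogenetic protein (BMP), the SMAD proteins, and the ubiquitin ligases and nuclear corepressors that limit SMAD signalling. The 36 genes were chosen by name, for their known role, from the 21938 protein-coding genes of the GENCODE M21 annotation. A deposited row was assigned to a gene when it lay in the gene or within 10000 bp of either end, on mouse genome build GRCm38 (mm10). The windows of the 36 genes did not overlap each other.

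DNA methylation was measured by whole-genome bisulfite sequencing, in which unmethylated cytosine is converted and methylated cytosine is not, in microglia, the resident macrophages of the brain. Of the 4 samples, 2 were wild type (WT) and 2 lacked the transcription factor IRF8 (IRF8KO). All were FACS-sorted microglia of untreated C57BL/6J mice aged 3 months, with 40000 cells per DNA extraction. The labels do not say how the knockout was made, which cells carry it, the sex of the mice, or whether the replicates of a genotype came from separate animals.

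TGF-beta is secreted in a latent complex, is bound to the matrix by latent-TGF-beta-binding proteins or to the cell surface by LRRC33 (gene Nrros) or GARP (gene Lrrc32), and is freed by integrins that contain the alpha V chain. The free ligand brings type II and type I receptor kinases together, the type I receptor phosphorylates SMAD2 and SMAD3, and these enter the nucleus with SMAD4. BMP receptors use SMAD1, SMAD5 and SMAD9 instead, and SMAD6 and SMAD7 act as inhibitors. In the brain, TGF-beta signalling is known to be needed for mature microglia to keep their identity, and IRF8 is a lineage factor of the same cells.

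Both deposited tables hold the authors' comparison of the groups and no value per sample. Their headers number the groups without naming a genotype, so that the text speaks of the first and the second group. A difference is the level of the first group minus that of the second, each on a scale from 0 to 1, and the levels themselves are not used here because no header ties them to a genotype. The site table lists 269406 cytosine positions. Each has a posterior probability of at least 0.95 that its difference exceeds a threshold, whose value the header does not give. The sizes of the listed differences given below are limited by that selection. Of the listed positions, 50425 (18.7%) had a false discovery rate (FDR) under 0.05 in the authors' deposited table. The region table lists 3389 regions, 53.3% of them higher in the first group. Read depth is unknown, since neither table gives coverage. For the same reason, no SD over replicates can be given, and the errors below are the authors' standard errors. Neither the deletion of Irf8 nor the purity of the cells could be checked, because the tables list differences in DNA methylation and no expression.

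A differentially methylated region lay at 4 of the 36 genes (11.1%): Ltbp3, Smad3, Smurf1 and Tgif2. Among all protein-coding genes the share was 9.19%, with 5.17% having a region higher and 4.69% a region lower in the first group. Of the TGF-beta and SMAD genes, 3 had a region higher and 2 a region lower, Smad3 having both. At least 1 position past the FDR threshold was present at 16 genes (44.4%), beside 30.8% of all genes. Such positions were higher in the first group at 12 genes (33.3%, against 20.5% of all genes) and lower at 9 genes (25.0%, against 16.4%). Any listed position was present at 29 genes (80.6%, against 64.1%). The remaining 7 genes, Tgfb3, Ltbp4, Lrrc32, Eng, Acvr1b, Smad9 and Smurf2, had no listed position.

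These shares move with gene length. The median length of the 36 genes was 66645 bp, against 17425 bp for all protein-coding genes. Regions were found at 2 of the 9 genes under 30 kb (background 4.73%), at 1 of the 20 genes of 30 to 100 kb (13.4%) and at 1 of the 7 longer genes (26.1%). Positions past the FDR threshold were found at 4, 6 and 6 genes of the same classes, with backgrounds of 19.5%, 39.9% and 76.2%. Listed positions of any FDR were found at 7, 16 and 6 genes, with backgrounds of 52.9%, 79.1% and 96.7%. When each of the 36 genes was set beside the 200 genes nearest to it in length, the mean share of such genes with a region was 14.8%, and the mean share with a position past the FDR threshold was 45.1%. Both are close to the 11.1% and 44.4% of the TGF-beta and SMAD genes, so that the counts of genes are near the background for their length.

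**Figure D1:**
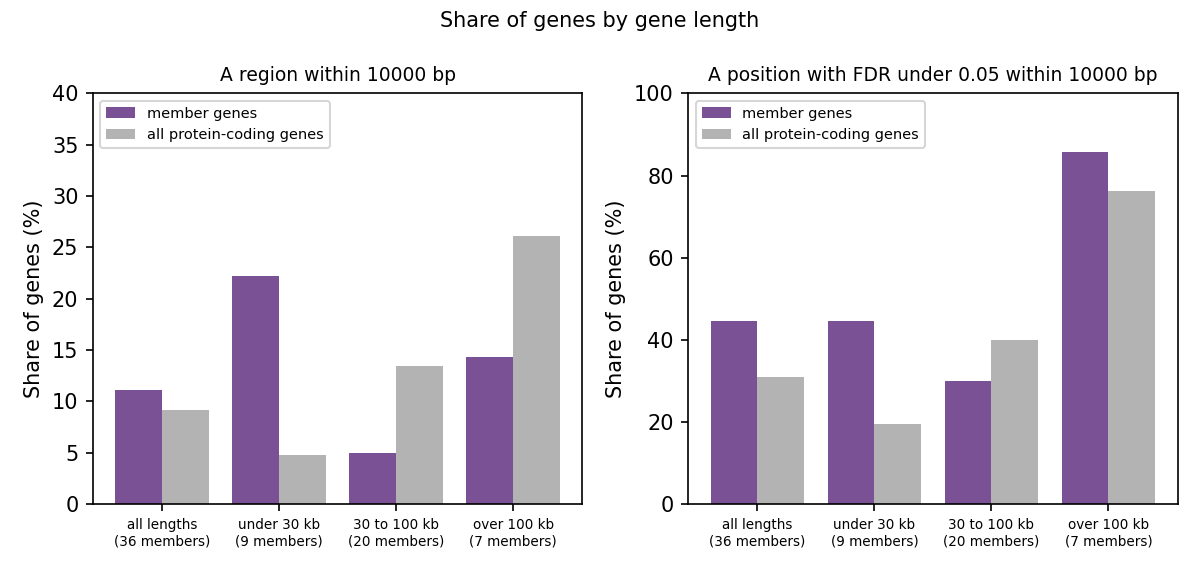
Share of genes (percent, vertical axis) with a deposited region (left) and with a position of FDR under 0.05 (right), over all lengths and in 3 classes of gene length (horizontal axis). Purple stands for the TGF-beta and SMAD genes and grey for all protein-coding genes; in the class of 30 to 100 kb, 5% of the TGF-beta and SMAD genes had a region against 13.4% of all genes.

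The 36 windows held 524 listed positions, 0.568% of the 92186 cytosine positions estimated to have been tested there. Numbers of tested positions, here and below, are estimates from the row numbers of the listed positions. At all protein-coding genes 0.561% of tested positions were listed, so that the shares were nearly level. Positions past the FDR threshold made up 0.0662% of those tested at the 36 genes and 0.109% at all protein-coding genes. The positions were unevenly spread: Smad3, Smad7, Itgav and Ltbp3 held 280 of them (53.4%). In listed positions, 17 of the 36 genes were over the median of the genes nearest in length and 19 were under it. Ranks among the genes nearest in length are given below only for some of the genes over that median. The 524 positions fell into 107 clusters of positions at most 500 bp apart, 72 of them single positions or pairs. In no cluster did directions mix, but close positions often share a value, so that this says little about the genes. Of the 29 clusters with at least 4 positions, 15 were higher in the first group and 14 were lower. Most positions lay in introns (357, or 68.1%), 68 lay upstream and 50 downstream of the gene, and 20 lay in coding exons. A position in a promoter, taken as 1000 bp before to 500 bp after any annotated protein-coding start, was listed at 3 genes (Bmpr1a, Smad3 and Tgif1, or 8.33%) beside 5.04% of all genes, and none of these promoter positions passed the FDR threshold.

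Of the 524 positions, 61 (11.6%) passed the FDR threshold, against 19.5% of the listed positions at all protein-coding genes. Of the 61, 43 (70.5%) were higher in the first group, against 53.6% at all protein-coding genes. Ltbp3 held 15 of these 43, all in 1 region. Of all 524 listed positions, 53.1% were higher, against 58.3% at all protein-coding genes. The genes Ltbp3, Smad3 and Smurf1 alone held 30 of the 61. Neighbouring positions often shared a value: 165 of the 171 pairs of positions 1 bp apart carried identical differences in the authors' deposited table. Of the 61 positions, 33 fell on a CpG of the reference genome and 28 did not. At Acvr1, Ltbp1, Skil, Smad5, Tgfbr3 and Tgif2, no position past the threshold fell on a reference CpG. At Bmpr2, Ltbp3, Smurf1 and Tgfbr2, the position of lowest FDR did not, although others past the threshold did. For 15 of the 33, the other cytosine of the same CpG was listed without passing the FDR threshold, for 14 it passed too, and for 4 it was not listed. A dispersion of its own in both groups was given for 19 of the 61, at Ltbp3, Smad3, Smurf1, Tgfbr2 and Tgif1. At the other 11 genes with such positions, no position past the threshold had this. Each carried a dispersion value shared by many positions in the first group, the second or both. The shared value was 0.0571 in the first and 0.0558 in the second group. The part of the shared dispersion in those FDR values was not tested.

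**Figure D2:**
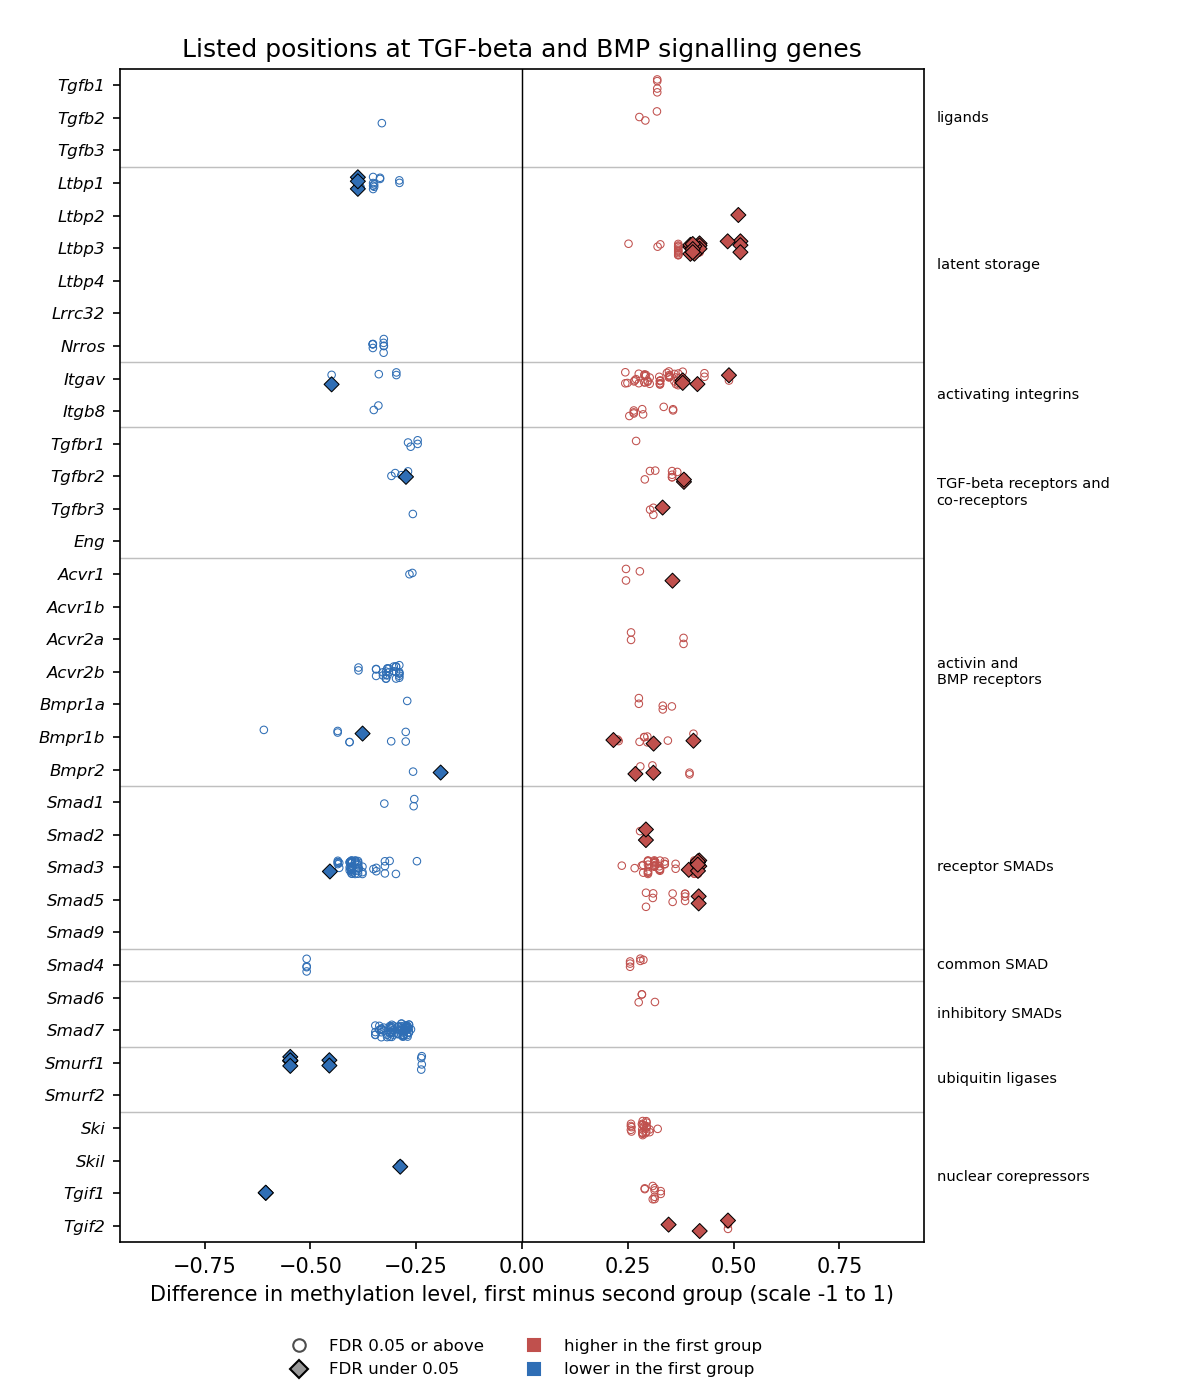
Difference in methylation level (first minus second group, horizontal axis) of each listed position, with 1 row per gene grouped by role. Red marks positions higher and blue positions lower in the first group, filled diamonds have an FDR under 0.05 and open circles do not; the 41 positions of Ltbp3 are all higher and the 74 of Smad7 are all lower.

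Little was listed at the ligand genes, and nothing there passed the FDR threshold. Tgfb1, the ligand that microglia themselves make, had 4 positions within 31 bp in the gene body, higher in the first group by a median of 0.320, with a lowest FDR of 0.338 in the authors' deposited table. Tgfb2 had 4 positions. Of these, 3 lay in a stretch of 195 bp from 8203 bp upstream of the gene and were higher. The other, in intron 1, was lower and had the lowest FDR of the gene, 0.708 in the authors' deposited table. Together the 3 ligand genes had 0.148% of their tested positions listed, the lowest share among the 10 roles.

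Among the genes of latent storage, Ltbp3 stood apart from the others. Its product tethers the latent complex to the matrix. Ltbp3 (ENSMUSG00000024940.11, chr19:5740904-5758532, plus strand) had 41 listed positions, all higher in the first group, or 2.38% of the 1723 tested there. Of the 200 genes nearest to it in length, 99.0% had fewer listed positions. The larger of its 2 regions, chr19:5743363-5743783, covers 421 bp and 26 cytosines of intron 2, with its centre 2669 bp past the gene start. Its mean methylation was higher in the first group by 0.424 in the authors' deposited table, and the median standard error of the cluster of listed positions there was 0.0968. By the size of the area score, which sums the test statistics of a region, it ranked 343 of 3389 regions in the authors' deposited table. At 15 of its 26 positions the FDR was under 0.05, with a lowest value of 7.98e-06 in the authors' deposited table. Its other region, chr19:5749582-5749679 in intron 12, had 4 cytosines, a difference of 0.346, and no position past the FDR threshold in the authors' deposited table (lowest FDR 0.301). The intron 2 region has the largest area score of the 7 regions, and the 300 bases of it with the most listed positions (19) are printed here on the plus strand of GRCm38 with the listed positions in capitals.
Ltbp3 intron 2, chr19:5743484-5743783: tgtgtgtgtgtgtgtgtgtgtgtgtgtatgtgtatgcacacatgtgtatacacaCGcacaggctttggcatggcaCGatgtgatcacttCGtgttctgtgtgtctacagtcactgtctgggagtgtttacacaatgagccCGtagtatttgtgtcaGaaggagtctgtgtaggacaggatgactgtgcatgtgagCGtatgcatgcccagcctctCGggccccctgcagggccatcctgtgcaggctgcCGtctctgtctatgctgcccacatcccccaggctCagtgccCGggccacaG

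The other storage genes had few positions. Ltbp1, of the same family, had 19 positions, all lower in the first group, 3 of them past the FDR threshold. Its lowest FDR in the authors' deposited table was 0.0173, at chr17:75080492, with a difference of -0.388 ± 0.0895 (SE). Ltbp2 had only the 2 cytosines of 1 CpG listed, both higher, 6054 bp past its end, where the authors' deposited table gave a lowest FDR at a difference of 0.511 ± 0.0939 (SE), with an FDR of 0.000191. The other cytosine had the same difference with an SE of 0.186 and an FDR of 1 in the authors' deposited table. Nrros, whose protein holds latent TGF-beta on microglia, had 9 positions from 5222 bp outside its 5′ boundary, all lower in the first group by a median difference of -0.327, with an FDR of 1 in the authors' deposited table. No position was listed at Ltbp4 or at Lrrc32.

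Itgav, which encodes the alpha V integrin chain, had 55 listed positions, 50 of them higher in the first group. That was 2.33% of its tested positions, and 96.0% of the genes nearest in length had fewer. The gene had no region. Its lowest FDR was at chr2:83715464, 8933 bp upstream of the start, where the difference in the authors' deposited table was 0.489 ± 0.0711 (SE) at an FDR of 7.9e-08. The other cytosine of that CpG had the same difference with an SE of 0.142 and an FDR of 0.252 in the authors' deposited table. Nearer to the start, 22 positions between 2694 and 1482 bp upstream were all higher, with a median difference of 0.326 and 2 positions past the FDR threshold (lowest 0.0191) in the authors' deposited table. Those 2 positions are adjacent, carry identical values and do not fall on a reference CpG. The cytosines of the adjoining CpG had an FDR of 0.0543 and 0.0756 in the authors' deposited table. A further 16 positions in intron 1, from 1611 to 2082 bp past the start, were also higher, by a median of 0.345, without passing the threshold (lowest FDR 0.116 in the authors' deposited table). The direction was not shared by the whole gene, since a position in intron 10 was lower by a difference of -0.450 at an FDR of 0.00432 in the authors' deposited table. Itgb8, the beta chain that pairs with alpha V in TGF-beta release, had 11 positions, 9 of them higher, and a lowest FDR of 0.152 in the authors' deposited table.

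The TGF-beta receptor genes had no region, and their listed positions were scattered apart from 1 cluster at Tgfbr2. Tgfbr2, the ligand-binding type II receptor, had 21 listed positions. Of these, 14 formed a cluster 2449 to 2873 bp upstream of the start that was higher in the first group, with a median difference of 0.361, 2 positions past the FDR threshold and a lowest FDR of 0.0490 in the authors' deposited table. The other 7 were lower, among them the gene's lowest FDR of 0.0141, 7121 bp past the end, with a difference of -0.274 ± 0.0624 (SE) in the authors' deposited table. Tgfbr1, the type I kinase, had 5 positions, 4 of them lower, with a lowest FDR of 0.133 in the authors' deposited table. Tgfbr3, the co-receptor betaglycan, had 1 position past the threshold, at chr5:107295742, which was 6113 bp upstream, with a difference of 0.332 ± 0.0590 (SE) and an FDR of 8e-05 in the authors' deposited table. Like the positions of lowest FDR at several other genes, it does not fall on a reference CpG. Nothing was listed at Eng, the co-receptor endoglin.

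Among the activin and BMP receptor genes, the lowest FDR of the 36 genes was at Bmpr1b, a type I BMP receptor. The position chr3:142116859 in its intron 1 had a difference of 0.405 ± 0.0506 (SE) and an FDR of 4.56e-11 in the authors' deposited table. The other cytosine of that CpG had the same difference with an SE of 0.184 and an FDR of 1 in the authors' deposited table. Bmpr1b had 22 listed positions, 12 of them higher, in 14 clusters of at most 3 positions across the gene, and 4 positions passed the threshold. The next lowest FDR, 9.37e-10, was at chr3:142076393 with a difference of 0.311 in the authors' deposited table, while chr3:141961908 was lower by a difference of -0.377 (FDR 0.00479 in the authors' deposited table). Neither chr3:142076393 nor chr3:141961908 falls on a reference CpG. The positions of Bmpr1b past the threshold stand alone or in pairs, unlike the clusters at Ltbp3 and Smad3. The windows printed here show the position of lowest FDR of Bmpr1b beside the like positions of Itgav and Tgfbr3, on the plus strand with the listed positions in capitals, so that the CpG context of the first pair can be set against the cytosine outside a CpG at Tgfbr3.
Bmpr1b, chr3:142116839-142116879: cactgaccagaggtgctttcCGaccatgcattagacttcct
Itgav, chr2:83715444-83715484: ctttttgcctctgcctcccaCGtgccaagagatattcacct
Tgfbr3, chr5:107295722-107295762: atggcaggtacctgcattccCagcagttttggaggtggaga

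Bmpr2, the type II BMP receptor, had 8 positions, 3 of them past the FDR threshold. The lowest FDR, 6.06e-05, was in intron 1 at chr1:59767275, with a difference of 0.310 ± 0.0546 (SE) in the authors' deposited table. Acvr1, a type I receptor, had 1 position past the threshold, at chr2:58394135, with a difference of 0.356 and an FDR of 0.0237 in the authors' deposited table. Acvr2b, an activin type II receptor, had 28 positions, all lower in the first group, which is more than 94.0% of the genes nearest in length. Of these, 23 lay in a 338 bp stretch starting 62 bp past the end of the gene, with a median difference of -0.303, and the lowest FDR was 0.194 in the authors' deposited table. Acvr2a had 4 positions and Bmpr1a had 6, with lowest FDR of 0.490 and 0.294 in the authors' deposited table.

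Smad3, the receptor SMAD that carries the TGF-beta signal with Smad2, had the most listed positions and the most regions of the 36 genes, and it changed in both directions. Smad3 (ENSMUSG00000032402.12, chr9:63646767-63757994, minus strand) had 110 listed positions, 51 higher and 59 lower in the first group, or 2.72% of the 4044 tested there. Of the genes nearest in length, 99.0% had fewer positions and 2.5% had 3 or more regions, as Smad3 had. In the gene, 108 of the 110 positions formed 4 clusters, which going from the start were lower, higher, higher and lower in the first group.

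Going from the start of Smad3, the first cluster held 36 positions 17526 to 17970 bp into the gene, lower in the first group by a median difference of -0.391, with a lowest FDR of 0.134 in the authors' deposited table. The next held 29 positions at an alternative start, 45876 to 46211 bp into the gene, higher by a median of 0.313, with a lowest FDR of 0.376 in the authors' deposited table. Neither cluster overlaps a deposited region. The third cluster, in intron 1, held 20 positions, all higher, and contains 2 regions. The difference was 0.413 in chr9:63678338-63678506 (6 cytosines) and 0.402 in chr9:63678578-63678764 (13 cytosines) in the authors' deposited table. The FDR threshold was passed by 5 of the 6 and 2 of the 13 positions, the authors' deposited table giving 0.0101 and 0.0142 as the lowest values. The fourth cluster contains the remaining region, chr9:63667803-63668039, which overlaps coding exon 2 about 90073 bp from the start. There the first group was lower over 22 cytosines, by a difference of -0.404 in the authors' deposited table. A single position of that region, off a reference CpG, passed the FDR threshold, at 0.0235 in the authors' deposited table. Even so, the area score of the region ranked 649 of 3389. The 3 regions are shown because neighbouring stretches of the gene differ in opposite directions. Each is on the plus strand, opposite to the gene, with the listed positions in capitals.
Smad3 exon 2, lower in the first group, chr9:63667803-63668039: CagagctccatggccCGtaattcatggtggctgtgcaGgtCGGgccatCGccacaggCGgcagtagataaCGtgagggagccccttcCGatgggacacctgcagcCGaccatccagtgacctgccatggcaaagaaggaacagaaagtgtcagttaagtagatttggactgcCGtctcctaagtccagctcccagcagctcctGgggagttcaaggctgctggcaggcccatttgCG
Smad3 intron 1, higher, chr9:63678338-63678506: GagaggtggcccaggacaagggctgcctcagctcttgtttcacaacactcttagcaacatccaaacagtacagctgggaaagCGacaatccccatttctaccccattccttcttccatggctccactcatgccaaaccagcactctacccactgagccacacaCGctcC
Smad3 intron 1, higher, chr9:63678578-63678764: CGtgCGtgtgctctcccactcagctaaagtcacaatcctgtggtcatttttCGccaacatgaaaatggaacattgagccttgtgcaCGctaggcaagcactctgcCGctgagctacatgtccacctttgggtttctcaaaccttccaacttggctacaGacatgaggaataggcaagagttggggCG

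The other receptor SMADs had few positions. Smad2 had 3, all higher in the first group, and 2 passed the FDR threshold in intron 2, with the same difference of 0.293 ± 0.0638 (SE) and a lowest FDR of 0.00698 in the authors' deposited table. Smad5, of the BMP branch, had 12 positions, all higher, 2 of them past the threshold, the lowest FDR of 0.00465 being at chr13:56712300 with a difference of 0.418 ± 0.0889 (SE) in the authors' deposited table. Smad1 had 3 positions, all lower, with a lowest FDR of 0.715 in the authors' deposited table. Smad4, the common partner of both branches, had 10 positions in either direction, and the lowest FDR was 0.104 in the authors' deposited table.

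Smad7, the inhibitory SMAD that TGF-beta itself induces, had no region and no position past the FDR threshold, but it had 74 listed positions, all lower in the first group. That was 3.79% of the 1953 positions tested there, and each of the 200 genes nearest in length had fewer. The positions formed 5 clusters. The largest held 38 positions over 979 bp of intron 2, from 4920 to 5898 bp past the start, with a median difference of -0.284 in the authors' deposited table. Of the others, 7 and 9 positions lay in intron 3, 6 in the last exon and 14 from 2770 bp past the end. Differences ran from -0.347 to -0.262, a range that the threshold for listing also limits, and the lowest FDR was 0.149 in the authors' deposited table. Of the 74 positions, 53 fell on a reference CpG and 47 had a dispersion of their own. Smad6, the inhibitor of the BMP branch, had 4 positions, all higher, with a lowest FDR of 0.183 in the authors' deposited table.

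Smurf1, a ubiquitin ligase that marks SMADs and receptors for degradation, was lower in the first group at all of its listed positions. Smurf1 (ENSMUSG00000038780.14, chr5:144876495-144965847, minus strand) had 11 listed positions, and 7 of them passed the FDR threshold. Its region in intron 1, chr5:144912604-144912896, holds 9 cytosines over 293 bp, 53097 bp from the start. The difference over the region was -0.458, and 7 of its 9 positions had an FDR under 0.05, the lowest being 4.47e-08 in the authors' deposited table. Of the 9 positions, that of lowest FDR differed by -0.548 ± 0.0785 (SE) in the authors' deposited table. The related ligase gene Smurf2 had no listed position. The Smurf1 region is shown, on the plus strand with the listed positions in capitals, because it has the lowest FDR among the 7 regions.
Smurf1 intron 1, chr5:144912604-144912896: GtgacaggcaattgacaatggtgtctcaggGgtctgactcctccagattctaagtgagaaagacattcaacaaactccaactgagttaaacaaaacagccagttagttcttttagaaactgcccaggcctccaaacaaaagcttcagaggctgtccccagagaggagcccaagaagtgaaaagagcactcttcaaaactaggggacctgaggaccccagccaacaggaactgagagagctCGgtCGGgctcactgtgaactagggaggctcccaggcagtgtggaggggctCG

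The corepressor genes differed from each other. Tgif2, a homeobox corepressor that binds SMADs, had 7 positions, all higher in the first group, 3 of them past the FDR threshold. Its region, chr2:156850782-156850847, covers 66 bp and 5 cytosines in intron 2, and overlaps a non-coding exon of another Tgif2 transcript and the gene 5430405H02Rik, so that it cannot be assigned to Tgif2 alone. The difference there was 0.473, the largest in size of the 7 regions, and the lowest FDR of its positions was 0.000477 in the authors' deposited table. The region is shown as the shortest one, on the plus strand with its listed positions in capitals.
Tgif2 intron 2, chr2:156850782-156850847: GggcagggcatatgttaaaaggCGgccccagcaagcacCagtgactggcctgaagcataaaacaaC

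Tgif1, the paralog of Tgif2, had 12 positions in both directions. A pair of positions 4889 bp past its end, at chr17:70839315 and chr17:70839316, was lower in the first group, with a difference of -0.606 ± 0.123 (SE) and an FDR of 0.00199 at the second of them in the authors' deposited table. The other 10 lay from 702 bp outside the gene's annotated 5′ boundary, at -3322 to -3041 bp from the start of the transcript used for distances, and were higher by a median of 0.313, with a lowest FDR of 0.184 in the authors' deposited table. Ski, a corepressor of SMAD2 and SMAD3, had 25 positions, all higher, in 2 clusters of intron 1 with median differences of 0.284 and 0.294, and a lowest FDR of 0.358 in the authors' deposited table. Skil, its relative, had 2 positions, both lower, and 1 of them passed the threshold 7736 bp past the end, with a difference of -0.288 ± 0.0623 (SE) and an FDR of 0.00621 in the authors' deposited table.

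Of the 7 regions, the first group was higher in 5 and lower in 2. The share of 71.4% has an exact Clopper-Pearson 95% interval of 29.0% to 96.3%, which holds the 53.3% of all 3389 regions. The interval treats regions as independent, which the regions of 1 gene may not be. The median size of the difference was 0.413, against 0.405 over all regions, and the median length was 187 bp against 199 bp. At 6 of the 7 regions (85.7%) at least 1 position passed the FDR threshold, against 77.9% of all regions. In these measures the 7 regions lie near the middle of the deposited list.

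**Figure D3:**
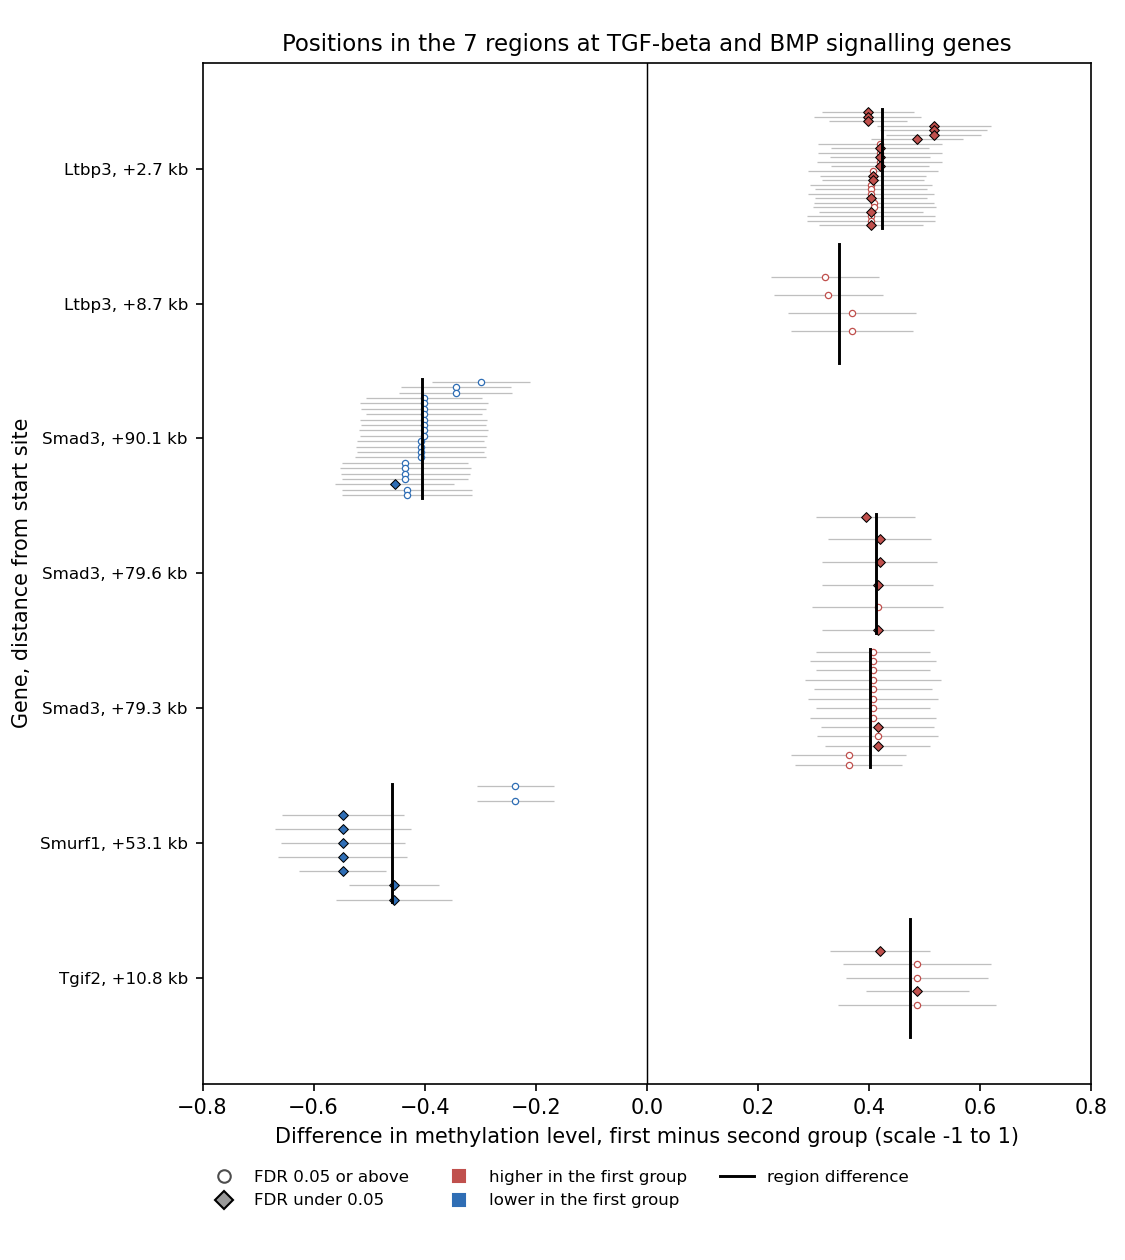
Difference in methylation level (first minus second group, horizontal axis) of the listed positions in each of the 7 deposited regions at Ltbp3, Smad3, Smurf1 and Tgif2 (vertical axis, with the distance from the gene start in kb). Grey bars are deposited standard errors, filled diamonds have an FDR under 0.05, open circles do not, and black lines give the region's difference; 15 of the 26 positions in the Ltbp3 intron 2 region are filled, and 1 of the 22 in the Smad3 exon 2 region.

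IRF8 binds DNA as a partner of PU.1 at an ETS-IRF composite element and with other IRF proteins at a repeat of GAAA, and SMAD3 and SMAD4 bind the SMAD box. The letters of these motifs were searched on both strands of all 3389 regions. The composite GGAANNGAAA was found in 1 of the 7 regions, the Smad3 exon 2 region that was lower in the first group, on the plus strand from chr9:63667939. It was found in 9.38% of all regions, in 2.16% of those higher and 17.6% of those lower in the first group. The repeat GAAANNGAAA was in none of the 7 and in 4.84% of all regions. The SMAD box CAGAC was in 3 of the 7 (Ltbp3 intron 2, the longer Smad3 intron 1 region and Smurf1), or 42.9%, against 45.7% of all regions. The SMAD motif GGCGC was in none of the 7 and in 9.21% of all. The ETS core GGAA, which is part of the composite, was in 6 of the 7, against 85.0% of all. Among the 2513 regions of the same span of lengths (66 to 421 bp), the shares were 8.12% for the composite, 3.86% for the repeat, 40.8% for CAGAC, 6.45% for GGCGC and 85.3% for GGAA.

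Further genes of the pathway, a list of 76 names of ligands, antagonists, receptors, kinases and target genes of which 74 were found in the annotation, had a median length of 17414.5 bp, close to that of all protein-coding genes. A region lay at 7 of the 74 (9.46%, against 9.19% of all genes), of which 3 genes were higher in the first group and 4 were lower, and a position past the FDR threshold at 26 (35.1%, against 30.8%), with 18 higher and 11 lower. These counts are near the background. Pmepa1, a target gene of TGF-beta whose product limits SMAD signalling, had more than any of the 36 genes: 9 regions and 501 listed positions, all higher, 51 of them past the FDR threshold. Of the 21938 protein-coding genes, 6 had 9 or more regions. Its largest region, chr2:173270612-173271674, had a difference of 0.390 over 54 cytosines, 30 of them past the threshold, in the authors' deposited table. Map3k7, the kinase TAK1 of the non-SMAD branch, had 2 regions, both lower, the larger at chr4:32009494-32010080 with a difference of -0.457 in the authors' deposited table. Acvrl1, a type I receptor, and Nedd4l, a ubiquitin ligase of SMADs, had 1 region each, both lower in the first group: the authors' deposited table gives -0.406 for the former and -0.441 for the latter. The regions counted at Gdf3, Zeb2 and Usp9x lay outside those genes, and those of Gdf3 lay inside Apobec1. Their largest regions differed by 0.403, 0.450 and -0.512, in that order, in the authors' deposited table.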

How the data were processed

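Whole-genome bisulfite libraries of 2 WT and 2 IRF8KO samples were made from 50 ng of DNA with 8 PCR cycles and read as 75 bp pairs, per the labels' protocols. Trim Galore, Bismark and build mm10 are named in the submitters' processing notes; nothing on the group test or its filters is given in the sources used here. Per the file headers, the authors deposited for each position a difference in methylation between the groups, its standard error and dispersions, a test statistic (score), and a p-value with its FDR, and for each region a length, a cytosine number, a difference and an area score. Depth is unknown, so that no interval for a level can be given. The levels per group served 1 purpose, to check the sign of the deposited difference, which equalled the first minus the second level in 100% of rows to within rounding. Per-sample columns left unused numbered 0.

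The 36 genes and the wider list were chosen with earlier results of these data known. Genes named with values are all 36, and those of the wider list that had a region. Rows were assigned to GENCODE M21 genes on GRCm38 within 10000 bp. The build was checked on the values: 78.0% of listed positions fell on a reference CpG, and 1.71% after a shift of 100 bp. Row numbers of the site table follow genome position up to 42734461 and were taken to count the tested positions. The number tested near each gene was estimated by linear interpolation between listed positions, and is not an exact count. A call is a deposited region or a deposited FDR under 0.05; no test was run on samples, since no value per sample was available, and 2 against 2 samples allow an exact two-sided permutation p of 0.333 at the smallest. Motifs were matched on both strands. The overlap step was tested on simulated positions. Python 3.11.15 was used with numpy 2.4.6, pandas 2.3.3, scipy 1.17.1 and pysam 0.24.0. Alternatives were the flank, the FDR and p thresholds, the number of cytosines per region, reference CpGs only, own dispersions only, clusters in place of positions, and leaving out Smad3 or Ltbp3, the last chosen after seeing the data.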

Additional observations from a re-analysis of the deposited data

How the results depend on the processing

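Of 68 alternative values, 46 kept to the reported value (counts within 1.5 times of it, shares within its interval), 22 moved, and 0 reversed. For the share of positions past the FDR threshold that were higher, the values counted as kept ran from 57.9% to 69.7%, beside 70.5%. That label is loose, because neighbouring positions often share a value. With a flank of 50000 bp, 9 genes had a region (18.8% of all genes), 15 regions were counted, and 25 genes had one or more of 148 positions past the FDR threshold (59.0% of all genes). With regions of at least 10 cytosines, 2 genes (5.14% of all genes) and 3 regions were left. Without Smad3, 4 regions were left. At an FDR under 0.01 there were 32 positions, and under 0.001 there were 14 at 8 genes (14.3% of all genes), 85.7% of them higher in the first group. At an unadjusted p under 0.001 there were 194 positions at 25 genes (48.2% of all genes), and without any threshold 524 at 29 genes (64.1% of all genes), 53.1% higher. On reference CpGs only, 33 positions at 10 genes passed the FDR threshold (24.0% of all genes). Another share took only listed positions on reference CpGs, over all positions of reference CpGs in the windows, tested or not. It was 0.446% (0.451% at all genes), and both its numerator and its denominator differ from those of the reported share. With a dispersion of their own, 19 positions at 5 genes passed (10.6% of all genes). Counted as clusters, there were 26. Without Ltbp3, 46 positions were left, 60.9% higher. No paired analysis was possible because no sample has a column of its own, and leaving out a replicate, the replicate block and a coverage minimum were not run for that reason. The spread between samples and their depth are unknown for all of these values.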

Other observations

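Of the 524 listed positions at the TGF-beta and SMAD genes, 390 (74.4%) fell on a CpG of the reference genome and 134 did not. All 134 fell on a C or G, and 89 of them (66.4%) were the outer C or G of the letters CAG or CTG. Over the whole site table, 59168 positions fell off a reference CpG, and 44218 of these (74.7%) were on CAG or CTG. The authors' deposited table does not give the cytosine context, and the cause was not tested.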
